A study of Mus musculus with 18 samples.

Results

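The guides described here are the 900 CRISPR guides against solute carrier and ABC transporter genes in a pooled library carried by MC38 cells, 900 of the 18146 guides in the count table. They were chosen by gene symbol alone, as every guide whose target is named Slc or Abca to Abcg followed by a number. They target 225 of 4532 genes with 4 guides each: 812 guides against 203 Slc genes in 47 families and 88 guides against 22 Abc genes in 5 subfamilies. The rule used no guide count, but the set was chosen for description with earlier results of these data known.

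MC38 is a mouse colon adenocarcinoma line that grows as a tumour in C57BL/6 mice. The guide libraries came from MC38 cells carrying a CRISPR library and implanted into B6-Rag1-KO mutant mice, which make no mature T or B cells and still have natural killer and myeloid cells, or into C57BL/6 wild-type mice. Each host genotype has 1 library, and the number of animals behind it, the time of harvest and the time since infection are not given in the sources used here. RNA sequencing of the same line, used here for the expression of the targeted genes, covers 5 Mbtps1 KD and 5 Mbtps1 WT tumours and 3 Mbtps1 KD and 3 Mbtps1 WT cultures, where KD is called a knockdown in the sample labels and a knockout in the series description. Those tumours grew in C57BL/6 wild-type mice, and neither the promoter of the knockdown construct nor the number of clones is given in the sources used here.

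Solute carriers are membrane proteins that move nutrients, ions, metals, vitamins and metabolites across the plasma membrane and the membranes of organelles, by facilitated diffusion or by coupling to ion gradients. ABC transporters spend ATP to move lipids, peptides, drugs and conjugates, mostly out of the cytosol. Tumour cells depend on some of them for glucose, amino acids and lactate export, and the same nutrients feed the T cells around them, which is why transporters are of interest in screens that compare immune-competent with immune-deficient hosts. No plasmid library and no cells sampled before implantation are analysed here, so a level that is low in both hosts cannot be set against a starting level.

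The Rag1-knockout library held 19114273 guide reads and the C57BL/6 library 27142741. All 900 transporter guides were read in both libraries, and all passed the minimum of 20 reads over both. Over the whole table, 8 guides had no read in Rag1-knockout hosts and 13 had none in C57BL/6 hosts. With the deeper C57BL/6 library thinned to the total of the other, every transporter guide still had a read, the lowest having 12. The lowest transporter guide in the full data was guide 3 of Slc7a2, a cationic amino acid transporter, with 20 reads in Rag1-knockout hosts and 18 in C57BL/6 hosts (guides are numbered within a gene in the order of their identifiers). No transporter guide had dropped out of either host at this depth.

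Transporter guides took a share of the reads close to their share of the library. They made up 5.25% of reads in Rag1-knockout hosts (exact 95% interval 5.24 to 5.26) and 5.14% in C57BL/6 hosts (5.13 to 5.14), against 4.96% of the guides. These intervals, and those given for ratios, cover counting error only, since the reads carry no molecular identifiers. The intervals given for shares of guides treat the guides as independent draws. None of the intervals covers variation between libraries of a host. The median level was 42.7 CPM (reads scaled to the guide total of the library) in Rag1-knockout hosts and 49.0 in C57BL/6 hosts, against 40.7 and 44.6 over all guides. Guides against olfactory receptors, the odour receptors of the nose, had lower medians of 27.3 CPM in Rag1-knockout hosts and 30.0 in C57BL/6 hosts, and the 24 non-targeting guides had higher ones of 73.6 and 55.7.

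Individual transporter guides were spread over a wide range in both hosts. Levels ran from 1.05 to 460.5 CPM in Rag1-knockout hosts, with the quartiles at 23.2 and 77.8, and from 0.663 to 309 CPM in C57BL/6 hosts, with the quartiles at 27.2 and 76.1. The 2 hosts ranked the guides alike: log2 levels correlated with r = 0.72 over the 900 guides, against 0.78 over all guides, a description only, since both libraries derive from 1 pool of guides and share its uneven starting levels. The guides of 1 gene resembled each other little: the intraclass correlation of log2 level, the share of the spread that lies between genes rather than among the 4 guides of a gene, was 0.069 for transporters, 0.18 over all genes and 0.041 for olfactory receptors.

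The comparison of hosts asks which guides differ in abundance when the host has an adaptive immune system. It is expressed here as the log2 ratio of C57BL/6 over Rag1-knockout CPM after adding 1 to each, so a negative value means a guide less abundant in C57BL/6 hosts. With 1 library per host there is no replicate error to hold a ratio against and no test, and every ratio below describes these 2 libraries.

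Transporter guides as a class stood where the library as a whole stood. Their median log2 ratio was 0.12, the same as over all guides and over olfactory receptor guides, and the non-targeting guides had 0.08. The SD over transporter guides was 0.92, against 0.93 over all guides, and the quartiles were -0.45 and 0.71. A ratio below 0 was found for 407 guides (45.2%, exact 95% interval 41.9 to 48.5), against 44.3% of all guides. Beyond 2-fold, 91 guides were lower in C57BL/6 hosts (10.1%, 8.22 to 12.3), where 11.1% of all guides were, and 130 were higher (14.4%, 12.2 to 16.9), where 14.9% were. The other 679 lay within 2-fold. The line at 2-fold falls in a continuum, the guides nearest to it having ratios of -0.989 and -1.004 on the lower side and of 0.996 and 1.002 on the upper.

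The spread of the ratios was far wider than counting error. The exact 95% counting interval of a guide's ratio had a median half-width of 0.13, and it left out 0 for 799 of the 900 guides (88.8%), against 87.2% of all guides. Guides with many reads were no tighter than guides with few. The 450 guides at or below the median of 2256 reads over both libraries had an SD of 0.84 and a median of 0.26, with 29 lower and 68 higher beyond 2-fold. The 450 guides above it had an SD of 0.99 and a median of -0.04, with 62 lower and 62 higher.

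The 4 guides of a gene shared a direction about as little as guides of different genes. The intraclass correlation of the ratio was -0.006 for transporters, 0.015 over all genes and 0.026 for olfactory receptors. The median range between the highest and the lowest ratio within a transporter gene was 1.81, against 1.75 over all genes. Of the 225 genes, 30 (13.3%) had guides beyond 2-fold in both directions, against 14.3% of all genes with 4 guides past the filter. All 4 guides were above 0 for 22 transporter genes (9.78%, where 9.95% of all genes were) and below 0 for 7 (3.11%, where 4.01% were).

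With a gene summarised by the median over its 4 guides, 2 transporter genes were lower in C57BL/6 hosts by more than 2-fold (0.889%, where 1.83% of all genes were) and 9 were higher (4.0%, where 3.54% were). The genes on either side of the line had -0.89 and -1.09 at the lower end and 0.97 and 1.01 at the upper. No transporter gene had at least 3 guides beyond 2-fold lower, where 0.73% of all genes did. At least 3 guides beyond 2-fold higher were found for 2, Slc22a30 and Slc5a3 (0.889%, where 1.56% of all genes did). The number of genes past the line depends on the summary: summing CPM over the guides of a gene gave 11 lower and 10 higher. Centring on the non-targeting guides left 4 higher. The matching shares over all genes were not taken for these 2 settings, so the counts cannot be set against the library.

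The lowest gene was Slc4a9, an anion exchanger of the bicarbonate transporter family best known from kidney. Its 4 guides had 22.4, 90.0, 110.9 and 77.0 CPM in Rag1-knockout hosts, against 17.8, 53.2, 23.9 and 17.2 CPM in C57BL/6 hosts. All 4 were lower in C57BL/6 hosts, by -0.32, -0.75, -2.17 and -2.10 on the log2 scale, a median of -1.42, and guides 3 and 4 passed 2-fold. The ratio of the summed reads was -1.42 (95% counting interval -1.49 to -1.36).

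Slc22a17, the lipocalin-2 receptor, was the other gene past 2-fold lower. Its guides had 125.2, 117.5, 27.2 and 57.5 CPM in Rag1-knockout hosts, against 20.9, 46.3, 47.9 and 31.4 CPM in C57BL/6 hosts. The ratios were -2.53, -1.32, 0.79 and -0.85, so guide 3 went the other way, and the median was -1.09. Its RNA is listed at 0 in the 3 control cultures.

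Low gene medians were also those of Slc45a4, Slc25a38, Abcc12, Slc17a3 and Slc5a8. Slc45a4, a member of a proton-coupled sugar carrier family, had a median of -0.89 with all 4 guides below 0, from -1.61 to -0.63. Slc25a38, the mitochondrial glycine carrier that serves heme synthesis, had -0.80 with all 4 below 0, from -1.09 to -0.40. Abcc12, a member of the multidrug resistance protein subfamily, had -0.75. Slc17a3, an organic anion and urate transporter, had -0.74, and Slc5a8, a sodium-coupled carrier of lactate and short-chain fatty acids, had -0.71. In each of these last 3 genes 1 of the guides lay above 0.

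The highest gene was Slc22a30, an orphan member of the organic anion transporter family. Its guides had 37.5, 20.1, 6.07 and 80.3 CPM in Rag1-knockout hosts, against 146.3, 59.5, 18.0 and 38.4 CPM in C57BL/6 hosts. The ratios of guides 1 to 3 were 1.94, 1.52 and 1.43, guide 4 had -1.05, and the median was 1.47. Slc22a30 belongs to a cluster of closely related rodent genes; whether its guides match a neighbour was not tested, since guide sequences are not analysed here.

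Slc5a3, the sodium-coupled myo-inositol carrier SMIT1, came next and had the narrowest range among the 9 genes past the line. Its guides had 52.3, 32.6, 28.4 and 33.3 CPM in Rag1-knockout hosts, against 82.2, 67.2, 74.2 and 82.9 CPM in C57BL/6 hosts. The lowest of its 4 levels in C57BL/6 hosts lay above the highest in Rag1-knockout hosts. The 4 guides are not replicates of a host, and the gene was picked for its high ratio. The share of all genes with such a separation was not taken. The ratios were 0.64, 1.02, 1.36 and 1.29, a median of 1.16, and the ratio of summed reads was 1.06 (counting interval 1.002 to 1.13).

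The other genes past 2-fold higher were Slc13a1, Slc27a5, Slc27a2, Slc35f5, Slc35a1, Abca12 and, outside the naming rule, Slc9c1 with 1.01. Slc13a1, the sodium-sulfate cotransporter, had a median of 1.10, with guides from -0.52 to 1.89. Slc27a2 and Slc27a5, fatty acid transport proteins with acyl-CoA synthetase activity, had 1.07 and 1.09. All 4 guides of Slc27a2 were above 0, from 0.01 to 1.37. Slc27a5 had 3 guides between 0.98 and 1.21, while its guide 4, at 135.5 CPM in Rag1-knockout hosts against 22.9 in C57BL/6 hosts, had -2.52. That guide held most of the gene's reads in Rag1-knockout hosts, and the ratio of summed reads was -0.55 (counting interval -0.61 to -0.48), the opposite direction to the median.

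Among carriers of nucleotide sugars, Slc35a1, the CMP-sialic acid carrier of the Golgi, had a median of 1.04. Its guides had 29.1, 18.7, 37.3 and 15.6 CPM in Rag1-knockout hosts, against 75.7, 31.6, 23.3 and 57.2 CPM in C57BL/6 hosts, so 3 guides were higher and guide 3 was lower. Slc35f5, a less studied member of the same family, had 1.05 with all 4 guides above 0, from 0.08 to 1.63. Abca12, the lipid transporter of skin lamellar granules, had 1.02, with guides from -0.39 to 1.78.

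Families with at least 4 targeted genes numbered 24 and held 171 of the 225 genes. Their median log2 ratios of C57BL/6 over Rag1-knockout ran from -0.29 for the ABCB subfamily to 0.70 for Slc30, and 8 were below 0. The families are small, from 4 to 18 genes, so their shares carry wide intervals, which treat guides as independent draws. The 2 ends are picked out of 24. Each count of guides beyond 2-fold in a family or cargo group stands against 11.1% lower and 14.9% higher over all guides.

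Metal carriers held the highest of the family medians. Slc30 encodes mostly zinc exporters, which move zinc out of the cytosol. Of its 20 guides, 7 were higher in C57BL/6 hosts by more than 2-fold (35.0%, exact interval 15.4 to 59.2, against 14.9% of all guides), with 1 lower. The gene medians were 0.97 for Slc30a8, 0.85 for Slc30a4, 0.67 for Slc30a10, 0.54 for Slc30a9 and -0.20 for Slc30a1. Slc30a4 had 48.0, 9.99, 63.3 and 15.9 CPM in Rag1-knockout hosts, against 138.2, 15.6, 137.6 and 19.2 CPM in C57BL/6 hosts, higher for every guide. Slc39, the zinc importers, had a median of 0.20, with 1 guide lower and 4 higher of 36. Over all 20 targeted genes of metals and heme, 3 guides were lower and 13 higher of 80 (3.75% and 16.3%).

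Amino acid and peptide carriers, the largest cargo group with 33 genes, had a median of 0.24, with 12 guides lower and 16 higher of 132. Slc7, which holds the exchangers that pair with the heavy chain Slc3a2, had 0.17, with 4 lower and 5 higher of 44. The well-studied carriers here were named for their known roles, outside the naming rule and with their values seen. Slc7a5, the leucine exchanger LAT1, had 73.5, 33.5, 48.6 and 240.3 CPM in Rag1-knockout hosts, against 90.4, 43.8, 94.8 and 61.7 CPM in C57BL/6 hosts, 3 guides higher and 1 lower. Slc1a5, the glutamine carrier ASCT2, had 14.96, 5.23, 34.2 and 121.6 CPM in Rag1-knockout hosts, against 59.6, 13.4, 53.1 and 60.8 CPM in C57BL/6 hosts, also 3 higher and 1 lower.

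Sugar carriers had a median of 0.01, with 14 guides lower and 13 higher of 84. Slc2a1, the glucose carrier GLUT1, had 23.2, 10.7, 23.2 and 36.3 CPM in Rag1-knockout hosts, against 5.27, 13.96, 65.7 and 61.9 CPM in C57BL/6 hosts, with ratios from -1.95 to 1.46. The Slc5 family of sodium-coupled sugar and solute carriers, which holds Slc5a3 and Slc5a8 at opposite ends of the gene medians, had 6 guides lower and 6 higher of 28. The lactate carriers of Slc16 had a family median of 0.21, with Slc16a1 at 0.21 and Slc16a3 at 0.09, and 5 guides lower and 4 higher of 24.

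Carriers of sodium, protons, bicarbonate and chloride had a median of -0.08, with 12 guides lower and 11 higher of 96. In Slc12, the cation-chloride cotransporters, 5 guides were lower and 1 higher of 20 (25% lower, exact interval 8.66 to 49.1, which holds the 11.1% of all guides). The lowest ratio of any transporter guide belonged to that family: guide 2 of Slc12a9 had 5470 reads in Rag1-knockout hosts and 647 in C57BL/6 hosts, a ratio of -3.53. In Slc26, anion exchangers, 2 were lower and 2 higher of 24, around a median of -0.22.

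Organic ion and bile acid carriers had a median of 0.05, with 7 guides lower and 14 higher of 100. Slc22, the largest single family with 18 genes, had 0.24, with 6 lower and 12 higher of 72, and it held both Slc22a17 and Slc22a30. The families Slc6, Slc17, Slc18 and Slc32, best known for neurotransmitter uptake and the filling of synaptic vesicles though they hold carriers of other cargo too, had 0.20, with 6 lower and 10 higher of 68. Mitochondrial carriers had 0.27, with 3 lower and 7 higher of 40, and among them guide 2 of Slc25a18, a glutamate carrier, had the highest ratio of any transporter guide, with 135 reads in Rag1-knockout hosts and 2686 in C57BL/6 hosts (3.63).

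Carriers of nucleosides and nucleotide sugars had a median of 0.30, with 3 guides lower and 11 higher of 60. Carriers of phosphate, sulfate and carboxylates had 0.21, with 6 lower and 11 higher of 60. Carriers of vitamins and choline had 0.20, with 6 lower and 8 higher of 40, and Slc19a1, the reduced folate carrier that in human cells also takes up cyclic GMP-AMP, had all 4 guides above 0, from 0.04 to 1.48. Sodium-calcium exchangers had 0.31, with 5 lower and 4 higher of 28. The 3 genes for carriers of fatty acids and acetyl groups, all of Slc27, had 0.95, with 1 lower and 5 higher of 12. The 2 urea carriers had -0.05, with 2 lower and 0 higher of 8. Slc51a, in none of these groups, had -0.04 with no guide beyond 2-fold.

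ABC transporters lay slightly below the solute carriers. Their 88 guides had a median of -0.08, against 0.14 for the 812 Slc guides, with 11 lower (12.5%) and 7 higher (7.95%). ABCC, which exports drug conjugates, had 5 guides lower and 0 higher of 32, with a median of -0.09. ABCB, which holds drug and peptide exporters, had 3 lower and 2 higher of 20. ABCA, lipid transporters, had 1 lower and 4 higher of 16 and a median of 0.24. The small ABCD and ABCG sets had medians of -0.33 over 8 guides and 0.38 over 12.

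Single guides dominated the top of the abundance list. Guide 4 of Slc23a1, a vitamin C carrier, had the most reads, 8803 in Rag1-knockout hosts and 3781 in C57BL/6 hosts, a ratio of -1.72. Guide 4 of Slc7a8, the exchanger LAT2, had 8674 in Rag1-knockout hosts and 2658 in C57BL/6 hosts (-2.20). Guide 4 of Slc34a2, a phosphate cotransporter, went the other way, with 2393 in Rag1-knockout hosts and 8393 in C57BL/6 hosts (1.298). Guide 4 of Slc13a2, a dicarboxylate carrier, had 5323 in Rag1-knockout hosts and 5892 in C57BL/6 hosts (-0.36). Guide 1 of Slc45a1, a sugar carrier, had 5187 in Rag1-knockout hosts and 5907 in C57BL/6 hosts (-0.32). The medians of the Slc7a8 and Slc34a2 genes were 0.09 and -0.09.

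The transporter genes with the lowest mean level over both hosts were Slc18a1, Slc22a28, Abcd4 and Slc3a2. Slc18a1, a vesicular monoamine transporter, averaged 13.2 ± 11.4 CPM in Rag1-knockout hosts and 11.6 ± 8.85 in C57BL/6 hosts (SD over 4 guides). Slc22a28, of the same rodent cluster as Slc22a30, averaged 15.7 ± 15.1 in Rag1-knockout hosts and 17.5 ± 15.4 in C57BL/6 hosts. Abcd4, which serves lysosomal export of vitamin B12, averaged 18.3 ± 10.1 in Rag1-knockout hosts and 24.6 ± 22.1 in C57BL/6 hosts. Slc3a2, the heavy chain of the LAT exchangers, had 30.4, 11.8, 16.9 and 9.26 CPM in Rag1-knockout hosts, against 23.3, 12.4, 18.1 and 62.6 CPM in C57BL/6 hosts. Its guides 2 and 3 were equally low in both hosts, and guide 4 was low in Rag1-knockout hosts alone, with a ratio of 2.63.

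Expression of the targets in the same line gives a readout that the guides did not use. Of the 225 targeted symbols, 135 are in the deposited RNA table and 90 are not. In the 3 Mbtps1 WT cultures 65 of the 135 averaged above 10 CPM, 15 lay from 1 to 10, 27 lay below 1 and 28 are listed at 0. These CPM take no account of transcript length, so the classes sort genes by reads rather than by transcripts.

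The 260 guides against targets above 10 CPM had median levels of 37.8 CPM in Rag1-knockout hosts and 47.7 in C57BL/6 hosts and a median log2 ratio of 0.14, with 11.5% lower and 16.5% higher beyond 2-fold. The 112 guides against targets listed at 0 had medians of 36.9 CPM in Rag1-knockout hosts and 45.0 in C57BL/6 hosts and a ratio of 0.14, with 10.7% lower and 13.4% higher. The 108 guides against targets below 1 CPM had 58.2 CPM in Rag1-knockout hosts and 52.7 in C57BL/6 hosts, with a ratio of -0.05. The intraclass correlation of level among the guides of a gene was 0.115 for targets above 10 CPM, 0.013 from 1 to 10 CPM, -0.040 below 1 CPM, -0.067 for targets listed at 0 and 0.109 for the 360 guides whose targets are not in the RNA table. Over the classes with an RNA value it fell from the highest class to the lowest, an order that was not tested. Targets not in the RNA table have no value that would place them in that order. For the ratio it ran from -0.079 to 0.031 over the 5 classes.

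Of the genes named at the low end of the ratio, Slc45a4 and Slc25a38 had RNA in the 3 control cultures, at 44.1 and 10.3 CPM on average. At the high end, Slc5a3 averaged 328 CPM, Slc35f5 34.7 and Slc35a1 36.1. Slc4a9, Abcc12, Slc17a3, Slc5a8, Slc22a30, Slc13a1, Slc27a5, Slc27a2 and Abca12 are not among the symbols of the RNA table. Of the genes with the lowest guide levels, Slc3a2 averaged 223 CPM and Abcd4 87.8, and Slc18a1 and Slc22a28 are not among the symbols of the RNA table.

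The RNA libraries also show how the targeted genes respond to depletion of Mbtps1, which encodes site-1 protease, the Golgi protease that releases the lipid-regulating SREBP factors and the stress sensor ATF6. The RNA libraries held 14240353 to 32655739 counts. Mbtps1 itself stood at 34.8 to 37.0 CPM in the 3 knockdown cultures, against 118 to 135 in the 3 control cultures, and at 41.4 to 57.1 CPM in the 5 knockdown tumours, against 110 to 130 in the 5 control tumours. The log2 fold changes of knockdown over control were -1.84 in cells (SE 0.09, edgeR adjusted p = 3.1e-06) and -1.21 in tumours (SE 0.09, adjusted p = 1.2e-05). Nothing in the labels says that replicates came from separate animals or cultures, and the p-values then cover only the variation among these libraries, part or all of which may be technical.

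The cultured cells showed few of the epithelial markers that a colon carcinoma line would carry. Epcam and Cdh1 are listed at 0 in all cultures, and Krt8 had 1.26 to 3.76 CPM in control cultures. Krt18 and Krt19 are not in the table. Of the mesenchymal markers in control cultures, Vim had 3714 to 4078 CPM, Col3a1 763 to 1362 CPM and Col1a1 0 to 0.490 CPM. In tumours Krt8 is listed at 0 throughout. Cdh1 had 3.12 to 6.21 CPM in knockdown tumours and 3.16 to 5.77 CPM in control tumours. Epcam had 0.031 to 0.859 CPM in knockdown tumours and 0.255 to 0.671 CPM in control tumours. The 4 leukocyte markers Ptprc, Cd3e, Cd8a and Itgam are at 0 in every culture. In tumours none of the 4 is at 0, and their summed level was 160 to 257 CPM in knockdown tumours and 91.2 to 151 CPM in control tumours.

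In cultured cells, of 90 targeted genes tested, 9 were lower in knockdown cells (10%, where 5.57% of the 11905 genes tested were), 3 were higher (3.33%, where 3.76% were) and 78 did not pass, so 13.3% were called in either direction, where 9.33% of all genes tested were. The median log2 fold change of the 90 was -0.00, against 0.01 over all genes tested. Carriers of metals and heme gave 4 of the 9, Slc39a6, Slc39a10, Slc41a2 and Slc31a1, with 4 lower, 0 higher and a median of -0.25 among the 12 members of that group tested. Of all cargo groups this one had the most lower calls in cells, so it is an end picked out of many. The zinc importer gene Slc39a6 had 90.8, 94.1 and 82.7 CPM in knockdown cells, against 195.8, 184.5 and 196.8 CPM in control cells. The groups did not overlap, and the log2 fold change was -1.12 (SE 0.09, edgeR quasi-likelihood adjusted p = 8.8e-05). Slc45a4 had 23.2, 23.6 and 23.3 CPM in knockdown cells, against 45.9, 45.0 and 41.5 CPM in control cells (-0.93, SE 0.10, adjusted p = 4.2e-04). Slc41a2, a magnesium carrier, had 89.6, 85.6 and 73.9 CPM in knockdown cells, against 153, 149 and 156 CPM in control cells (-0.89, SE 0.10, adjusted p = 4.2e-04).

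The mitochondrial carrier gene Slc25a40, which in mammalian cells serves glutathione import, averaged 16.3 ± 1.72 CPM in knockdown cells and 24.6 ± 1.03 CPM in control cells (SD, n = 3 each; log2 fold change -0.61, SE 0.13, edgeR adjusted p = 0.0149). Slc39a10, a second zinc importer, averaged 63.6 ± 6.43 CPM in knockdown cells and 92.1 ± 9.31 CPM in control cells (-0.55, SE 0.11, adjusted p = 0.0147). The other genes that fell were Slc31a1, the copper importer, Abcb10, a mitochondrial inner membrane transporter, Slc46a1, the proton-coupled folate transporter, and Slc9a9, an endosomal sodium-proton exchanger.

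The 3 genes that rose in knockdown cells were Slc25a38, Slc3a2 and Slc27a1. Slc3a2 had 320, 303 and 363 CPM in knockdown cells, against 204, 241 and 223 CPM in control cells (log2 fold change 0.55, SE 0.10, edgeR adjusted p = 0.0070). Slc25a38 had 15.2, 15.5 and 14.8 CPM in knockdown cells, against 10.2, 10.8 and 9.90 CPM in control cells (0.55, SE 0.14, adjusted p = 0.0285). Slc27a1, a fatty acid transport protein, had 208, 193 and 223 CPM in knockdown cells, against 165, 163 and 156 CPM in control cells (0.36, SE 0.09, adjusted p = 0.0292).

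Some of these calls were lost when a culture was left out. Over all alternatives run, Slc25a38 lost its call under 6 and Slc27a1 under 5, so no single culture accounts for those losses. Shares over all genes were not taken with a culture left out. Without control replicate 1, 0 genes were higher and 4 lower, and Slc25a38 (adjusted p = 0.127), Slc27a1 (0.118), Slc25a40 (0.091), Slc39a10 (0.083) and Slc3a2 (0.060) no longer passed, all by edgeR. Without knockdown replicate 1, 1 was higher and 4 lower, and without control replicate 2, 1 was higher and 7 lower. Slc39a6, Slc45a4 and Slc41a2 passed in cells under every alternative run.

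In tumours, transporter genes were called in both directions, at shares below those of the whole table. Of 116 targeted genes tested, 16 were higher in knockdown tumours (13.8%, where 20.1% of the 13997 genes tested were), 17 were lower (14.7%, where 18.3% were) and 83 did not pass, so 28.4% were called in either direction, where 38.4% of all genes tested were. The median log2 fold change was 0.04, against 0.02 over all genes tested. A tumour library mixes MC38 cells with host cells, and fewer cells of a type cannot be told apart from less RNA per cell. Carriers of nucleosides and nucleotide sugars had 4 of 12 tested members higher and 0 lower, with a median log2 fold change of 0.20, and carriers of metals and heme had 2 higher and 4 lower of 16. Of all cargo groups these had the most higher and the most lower calls in tumours, so they too are ends picked out of many. The leukocyte markers given above were higher in knockdown tumours, and their part in the transporter results was not tested.

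The 5 largest rises among genes averaging at least 5 CPM were those of Slc28a2, Slc5a3, Slc11a1, Slc35e2 and Slc4a7. Slc28a2, a concentrative nucleoside carrier, had 11.2, 11.5, 10.96, 16.6 and 19.2 CPM in knockdown tumours, against 7.28, 4.08, 5.92, 4.69 and 5.05 CPM in control tumours (log2 fold change 1.37, SE 0.19, edgeR adjusted p = 2.7e-04). The gene is listed at 0 in all 6 cultures. Slc5a3 had 42.6, 40.0, 40.6, 50.1 and 55.4 CPM in knockdown tumours, against 18.9, 21.0, 21.3, 17.01 and 19.95 CPM in control tumours (1.23, SE 0.10, adjusted p = 1.2e-05). In culture the same gene had 257, 278 and 217 CPM in knockdown cells, against 379, 334 and 271 CPM in control cells, a log2 fold change of -0.40 that did not pass (SE 0.13, adjusted p = 0.079).

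Slc11a1, the divalent metal carrier of macrophage phagosomes, had 72.7, 89.6, 59.0, 97.1 and 76.8 CPM in knockdown tumours, against 52.9, 25.6, 37.8, 38.5 and 37.8 CPM in control tumours (log2 fold change 1.05, SE 0.16, edgeR adjusted p = 5.5e-04). The groups did not overlap. Of the leukocyte markers, Ptprc had 76.6 to 124 CPM in knockdown tumours and 39.5 to 59.6 CPM in control tumours, and Cd8a had 27.7 to 34.8 CPM in knockdown tumours and 9.82 to 20.4 CPM in control tumours, with no overlap. Cd3e had 7.69 to 11.7 CPM in knockdown tumours and 3.14 to 9.07 CPM in control tumours. Itgam averaged 74.0 CPM in knockdown tumours and 53.6 CPM in control tumours, with ranges of 44.0 to 91.3 and 36.2 to 65.3 CPM that overlapped. The part of leukocyte RNA in the Slc11a1 result was not tested. Slc35e2, a less studied Slc35 member, averaged 25.5 ± 4.23 CPM in knockdown tumours and 16.2 ± 1.35 CPM in control tumours (SD, n = 5 each; 0.68, SE 0.13, adjusted p = 0.0015). Slc4a7, the sodium-bicarbonate cotransporter NBCn1, averaged 25.3 ± 2.59 CPM in knockdown tumours and 16.4 ± 1.35 CPM in control tumours (0.64, SE 0.10, adjusted p = 4.6e-04).

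The 5 largest falls were those of Slc46a1, Slc41a3, Slc6a8, Slc7a5 and Abcc10. Slc46a1 had 10.5, 7.37, 4.72, 6.75 and 4.54 CPM in knockdown tumours, against 16.3, 13.3, 15.4, 13.7 and 13.7 CPM in control tumours (log2 fold change -1.09, SE 0.19, edgeR adjusted p = 0.0012). It was lower in the knockdown in both settings, with 1.92 ± 0.835 CPM in knockdown cells and 5.77 ± 0.369 CPM in control cells (SD, n = 3 each). Slc41a3, a mitochondrial magnesium carrier, averaged 7.24 ± 0.538 CPM in knockdown tumours and 11.5 ± 0.682 CPM in control tumours (-0.65, SE 0.10, adjusted p = 5.9e-04), and the groups did not overlap.

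Slc6a8, the creatine carrier, had 129, 116, 119, 128 and 102 CPM in knockdown tumours, against 141, 177, 171, 177 and 176 CPM in control tumours (log2 fold change -0.49, SE 0.09, edgeR adjusted p = 0.0017). Slc7a5 had 222, 158, 173, 215 and 164 CPM in knockdown tumours, against 311, 184, 263, 264 and 269 CPM in control tumours, with control replicate 2 inside the knockdown range (-0.46, SE 0.13, adjusted p = 0.015). Abcc10, a multidrug resistance protein of the ABCC subfamily, averaged 6.99 ± 0.991 CPM in knockdown tumours and 9.59 ± 1.19 CPM in control tumours, with overlap (-0.44, SE 0.14, adjusted p = 0.025). Its call was lost without control replicate 4 (adjusted p = 0.068), control replicate 5 (0.063), knockdown replicate 2 (0.054) or knockdown replicate 5 (0.054), and also with the replicate block (0.055). In knockdown tumours the higher genes also included Slc30a4, Slc35a3, Abcd4, Slc12a2, Slc16a1 and Slc25a40, and the lower ones Slc45a4, Slc41a2, Slc31a1, Slc39a1, Slc4a2 and Slc36a1.

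The effect of the knockdown differed between tumours and culture for 24 of 100 targeted genes by an interaction term (edgeR, adjusted p under 0.05), where 22.7% of 12581 genes did. Slc5a3 had the smallest p among the named genes: its effect was 1.65 higher in tumours on the log2 scale (SE 0.18, adjusted p = 2.5e-05). Slc39a6 was lower in knockdown cells and had a log2 fold change of 0.08 in tumours (SE 0.09, adjusted p = 0.486), a difference of 1.22 (SE 0.14, adjusted p = 2.6e-05). Tumours carry host RNA and the cultures do not, so the setting and the cell mixture cannot be told apart.

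Beside the guide counts, the genes called at the RNA level that are given here did not take 1 direction. They were picked with their values seen, and other called genes are left out. Slc5a3, whose RNA was higher in knockdown tumours, had guides higher in C57BL/6 hosts (median log2 ratio of C57BL/6 over Rag1-knockout 1.16). Slc45a4, whose RNA was lower in knockdown cells and in knockdown tumours, had guides lower in C57BL/6 hosts (-0.89), as had Slc46a1 (-0.65). Slc39a6, lower in knockdown cells, had guides at 0.78, and Slc41a2, lower in both settings, had guides at 0.46. Slc25a38, higher in knockdown cells, had guides at -0.80. These pairs stand side by side as values, and no relation between the readouts was tested.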

How the data were processed

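The 900 transporter guides and the gene lists were chosen with earlier results of these data known. Both tables are raw counts as deposited by the authors: whole numbers of reads for each guide in the screen and for each gene symbol in the RNA libraries. The labels give 1 protocol, mRNA sequencing, for every sample; how guides were amplified and counted is not stated there. The submitters' processing notes list STAR 2.7.1a, HTSeq 0.13.5, cutadapt 1.18, FastQC 0.11.9, Cufflinks 0.17.3, SAMtools 1.3.1 and the build hg38, with no role; the symbols are those of mouse genes, so no coordinates are given. The lowest non-zero sum over cultures was 13 and over tumours 15, so a gene at 0 is called listed at 0. Near-identical genes may share guides or reads, and whether counting used strand is not given.

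Guide counts were scaled to each library's total (CPM), and the log2 ratio of C57BL/6 over Rag1-knockout took a pseudocount of 1 CPM for guides with at least 20 reads. Intervals are exact (Clopper-Pearson, 95%). With 1 library per host no test was made. RNA was fitted on the whole table with edgeR 4.0.16 in R 4.3.3 (TMM, filterByExpr, robust quasi-likelihood test, two-sided, Benjamini-Hochberg, threshold 0.05), separately for cultures and tumours, with 1 interaction fit over the 16 libraries. Screen scripts ran in Python 3.11.15. Both methods were tested on simulated data, guides with counting error only and RNA with 1 level of variation shared by all genes. The wider spread of the real guide ratios was not simulated.

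Named genes are the 8 lowest and 8 highest gene medians, the 5 guides with the most reads, the 4 genes with the lowest level, and in each RNA comparison the 5 largest rises and falls of called genes averaging at least 5 CPM. Some genes that the rule takes are left out of the text, and other genes were named after their values were seen. Alternatives were other scalings, pseudocounts, read filters and gene summaries for the screen, and for RNA DESeq2 1.42.0, other filters, a replicate block and leaving out each library.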

Additional observations from a re-analysis of the deposited data

Results flagged for a closer look

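Among the 18 genes named from the RNA comparisons, 3 of the 36 tumour groups of 5 had a library apart from its 4 fellows, where chance gives about 1 in 20. Slc25a40 stood at 8.21 CPM in control tumour replicate 2, against 5.95 to 6.48 in the others. Slc41a2 stood at 59 CPM in control tumour replicate 5, against 52.6 to 53. Slc6a8 stood at 141 CPM in control tumour replicate 1, against 171 to 177.

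The knockdown effect differed between tumours and culture for 11 of the 17 named genes tested, by the edgeR interaction term, against 24 of 100 targeted genes and 22.7% of all 12581 genes tested. The named genes were taken for large changes in 1 of the settings, so their count is not comparable with those shares. As tumours minus cells on the log2 scale, the effect was higher in tumours for Slc5a3 by 1.65, Slc39a6 by 1.22, Slc25a40 by 1.1, Slc4a7 by 0.827, Slc35e2 by 0.632, Slc45a4 by 0.571, Slc39a10 by 0.521 and Slc41a2 by 0.496. It was lower in tumours for Abcc10 (-0.659), Slc41a3 (-0.599) and Slc6a8 (-0.576). Adjusted p ran from 2.5e-05 for Slc5a3 to 0.041 for Abcc10.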

How the results depend on the processing

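With a pseudocount of 5 the family medians of Slc30 and Slc8 were 0.48 and 0.24, against 0.70 and 0.45 with a pseudocount of 1. Centred on the non-targeting guides, 48.8% of transporter guides lay below 0 and 4 genes were higher by more than 2-fold; a pseudocount of 5 left 2 higher, and summed CPM gave 11 lower. Slc27a5 turned to -0.54 with summed CPM. In cells DESeq2 called 14 genes lower. Replicate numbers did not pair the libraries: same-numbered deviations correlated at -0.31 to 0.21, and no library correlated best with its own number. With the replicate block, 1 gene was higher and 7 lower in cells and 14 higher and 13 lower in tumours. Leaving out 1 library gave 0 to 4 higher and 4 to 12 lower in cells, and 14 to 19 higher and 13 to 19 lower in tumours. The matching shares over all guides or all genes are not given for these alternatives. The cause of the changes was not tested. Depth gave a median counting half-width of 0.13 per guide ratio; variation between libraries of 1 host was not measured.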
